A study of Mus musculus with 18 samples.

Results

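The nuclear genes of the mitochondrial respiratory chain were examined in chromatin accessibility data from mouse T-cell lymphomas and normal lymphocytes. Members were the symbols, on peaks whose annotated gene type includes protein-coding, that begin with Nduf, Cox4 to Cox8, Atp5 or Uqcr, or that are Sdha, Sdhb, Sdhc or Sdhd. The rule found 90 genes among 20325 with a peak, and these 90 held 164 of 61224 peaks. By symbol they were 38 genes of complex I, 8 assembly factors of complex I, 4 genes of complex II, 8 of complex III, 15 of complex IV and 17 of complex V. ATAC-seq, in which the Tn5 transposase cuts and tags open DNA, had been run on 18 libraries of C57BL/6 mice. The 9 lymphoma libraries (mPTCL) came from tumours that grew when T cells lacking p53 (p53KO) were transferred into CD3KO hosts, which lack T cells of their own, and the sort was on cells of the liver. Each normal group held 3 libraries from wild-type (WT) mice: CD3+ thy1+ cells of the spleen (T), CD27- CD11b+ NK cells of the spleen (NK), and liver cells positive for CD3 and for the CD1d tetramer with alpha Gal Cer (NKT), although the NKT titles read Sp. Every lymphoma comparison mixes genotype with sort gate, and those with T and NK also mix in the tissue, so these cannot be told apart. The labels give no ages, name no markers for the lymphoma sort, and leave unsaid whether each library is its own animal; p-values then measure only the spread between these samples.

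The respiratory chain sits in the inner mitochondrial membrane. Complex I takes electrons from NADH and complex II from succinate, complex III passes them to cytochrome c, complex IV hands them to oxygen, and complex V uses the resulting proton gradient to make ATP. Most subunits are encoded in the nucleus, and their promoters are known as a group that is active in nearly all cells and often holds sites for the factors NRF1, GABP (an ETS-family factor) and YY1. Activated and malignant lymphocytes are known to use glycolysis and respiration side by side. An open promoter is not the same as a transcribed gene, and no RNA was measured in these libraries.

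Promoter windows of 300 bases, from 250 before to 50 after the annotated start, were taken from RefSeq on the GRCm38.p6 build. They were found for 74 of the 90 members, 72 by symbol and 2 by an older name, and 71 of these windows overlapped a promoter peak of the same gene. On either strand, the NRF1 core GCATGCGC was present in 12 of the 74 windows (16.2%), against 2.71% of all 32851 windows and 5.74% of the 11872 windows that overlap any promoter peak. The ETS core CCGGAAG was present in 18 (24.3%), against 8.86% of all windows and 19.3% of those over a peak. The YY1 core AAGATGGC was present in 10 (13.5%), against 2.75% and 4.6%. CCAAT, the core read by NFY, was found in 43.2% of the members, against 37.4% of all windows and 37.7% of those over a peak. The SP1 core GGGCGG was found in 45.9%, against 35.7% of all windows and 68.4% of those over a peak. At least 1 of the NRF1, ETS and YY1 cores was present in 34 of the 74 windows (45.9%, against 27.2% of windows over a peak), and none of the 74 held all 3. A match describes letters only, and a window without one says nothing about binding.

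The 250 bases before the start are printed for 6 members whose accessibility differed between groups in the results that follow. Capitals mark matches to any of the 5 cores on either strand, and all 6 genes lie on the minus strand, so each sequence is given 5' to 3' along the gene. Cox7c, Ndufa4, Atp5j and Atp5md had lower accessibility in lymphomas in at least 1 comparison, and Atp5g2 and Cox6a1 had higher accessibility. The positions are chr13:86046796-86047045 for Cox7c, chr6:11907451-11907700 for Ndufa4, chr16:84835626-84835875 for Atp5j, chr19:47090648-47090897 for Atp5md, chr15:102671048-102671297 for Atp5g2 and chr5:115348959-115349208 for Cox6a1.
Cox7c: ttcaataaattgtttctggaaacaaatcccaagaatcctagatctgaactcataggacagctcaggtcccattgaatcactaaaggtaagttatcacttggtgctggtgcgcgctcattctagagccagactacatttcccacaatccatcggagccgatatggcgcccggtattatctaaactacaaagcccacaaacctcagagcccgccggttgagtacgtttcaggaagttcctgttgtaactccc
Ndufa4: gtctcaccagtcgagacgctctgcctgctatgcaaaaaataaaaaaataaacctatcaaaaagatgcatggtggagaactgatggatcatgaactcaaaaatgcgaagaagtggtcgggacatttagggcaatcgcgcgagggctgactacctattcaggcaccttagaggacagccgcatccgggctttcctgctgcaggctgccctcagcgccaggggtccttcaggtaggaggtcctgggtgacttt
Atp5j: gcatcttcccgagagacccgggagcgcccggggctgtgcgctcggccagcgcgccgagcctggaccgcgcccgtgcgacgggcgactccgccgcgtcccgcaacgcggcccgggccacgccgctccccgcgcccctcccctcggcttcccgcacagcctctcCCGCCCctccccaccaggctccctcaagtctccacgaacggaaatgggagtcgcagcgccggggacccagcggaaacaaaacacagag
Atp5md: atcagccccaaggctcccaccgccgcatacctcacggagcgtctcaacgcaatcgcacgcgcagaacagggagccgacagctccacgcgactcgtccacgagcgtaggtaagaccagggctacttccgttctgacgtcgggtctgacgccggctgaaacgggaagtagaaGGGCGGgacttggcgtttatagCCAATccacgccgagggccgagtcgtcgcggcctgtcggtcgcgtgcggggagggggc
Atp5g2: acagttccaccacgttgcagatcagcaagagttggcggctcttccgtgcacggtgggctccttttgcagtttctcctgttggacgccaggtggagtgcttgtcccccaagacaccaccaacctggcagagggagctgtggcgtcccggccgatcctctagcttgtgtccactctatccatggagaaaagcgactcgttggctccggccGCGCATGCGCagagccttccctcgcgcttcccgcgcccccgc
Cox6a1: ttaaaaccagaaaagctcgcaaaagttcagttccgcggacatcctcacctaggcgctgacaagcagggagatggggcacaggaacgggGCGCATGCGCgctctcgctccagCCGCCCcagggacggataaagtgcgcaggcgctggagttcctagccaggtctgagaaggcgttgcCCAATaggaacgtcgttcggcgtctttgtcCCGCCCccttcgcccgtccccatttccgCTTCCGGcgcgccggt
Atp5g2 and Cox6a1 each hold the NRF1 core on both strands, overlapping in 1 palindrome, and Cox6a1 also holds 1 ETS, 1 NFY and 2 SP1 matches. Atp5md holds 1 NFY and 1 SP1 match in these 250 bases, and its ETS match lies in the 50 bases after the start. Atp5j holds 1 SP1 match, and no core was found in the printed bases of Cox7c and Ndufa4.

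Total counts in peaks were 670358 to 4844441 per lymphoma library. The T libraries had 979441 to 2358023, the NKT libraries 1433904 to 9097014 and the NK libraries 417107 to 596601. The median count per member gene and library was 16 to 26 in the 3 NK libraries and at least 30 in every other library. At the targeted gene Trp53, the promoter peak starting at 69578979 on chromosome 11 held 24.2 to 68.2 CPM (counts scaled to library size) in lymphomas and 6.35 to 41.5 in normal libraries. Since the deleted stretch is not named in the labels, this peak does not check them. The summed level of the 8 T-cell markers was 244 to 412 CPM in lymphomas. It was 391 to 515 for T cells, 752 to 836 for NKT cells and 152 to 224 for NK cells. Part of the NKT sum came from Cd4, at 207 to 254 CPM of the 752 to 836, against 1.91 to 17.2 among lymphomas. Cd8a went the other way, with 0.934 to 3.96 for NKT cells and 7.4 to 26.5 among lymphomas. Against NKT, 5 of the 8 markers were called lower and 1 higher. The 7 NK-cell markers summed to 303 to 486 CPM among lymphomas. NK libraries reached 251 to 276 for these markers, NKT libraries 279 to 316, and T libraries 186.5 to 205. Among the markers of other cell types that had peaks, the 6 myeloid ones summed to 142 to 197 CPM in lymphomas and 146 to 177 in NK libraries, but to 73.9 to 77.9 in T and 67.4 to 82.1 in NKT libraries. The 2 hepatocyte markers with peaks summed to 29.3 to 78.6 CPM in lymphomas against 3.96 to 53.8 in normal libraries, while Alb, Apoa1, Ttr and Tat were not analysed here. Their part in the results was not tested.

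Respiratory chain genes were marked mostly by strong promoter peaks. Of their 164 peaks of 500 bp, 115 (70.1%) were annotated as promoter, against 32.6% of all peaks, and 29 were intronic, 18 flanking and 2 exonic. A promoter peak was present at 86 of the 90 genes, and 47 genes had a single peak. Ranked by mean log2 CPM among all peaks, the median member promoter peak stood at the 89.2 percentile, and the median promoter peak of all genes at the 76.4 percentile. Many of these promoters are shared: 44.3% of the member promoter peaks carried the symbol of at least 1 further gene, against 18.6% of all promoter peaks, so their counts belong to both genes. Atp5o is a case apart, since 8 of its 10 peaks were also given to Itsn1, and Ndufa11b, which is typed as a processed pseudogene, entered only through a peak that it shares with the protein-coding Igf2bp2.

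In the libraries, the members' peaks took 0.410% to 0.550% of all counts in lymphomas, with a median of 0.480%. That share was 0.543% to 0.571% for T cells, 0.513% to 0.555% for NKT cells and 0.455% to 0.528% for NK cells. Lymphomas lay below all 3 T libraries except for lymphoma 3, at 0.550%, and they overlapped the NKT and NK ranges. The share of counts in all promoter peaks moved the same way, with 48.7% to 59.1% in lymphomas, 62.5% to 63.5% for T cells, 59.9% to 64.0% for NKT cells and 55.3% to 60.4% for NK cells. Its part in the members' share was not tested.

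**Figure D1:**
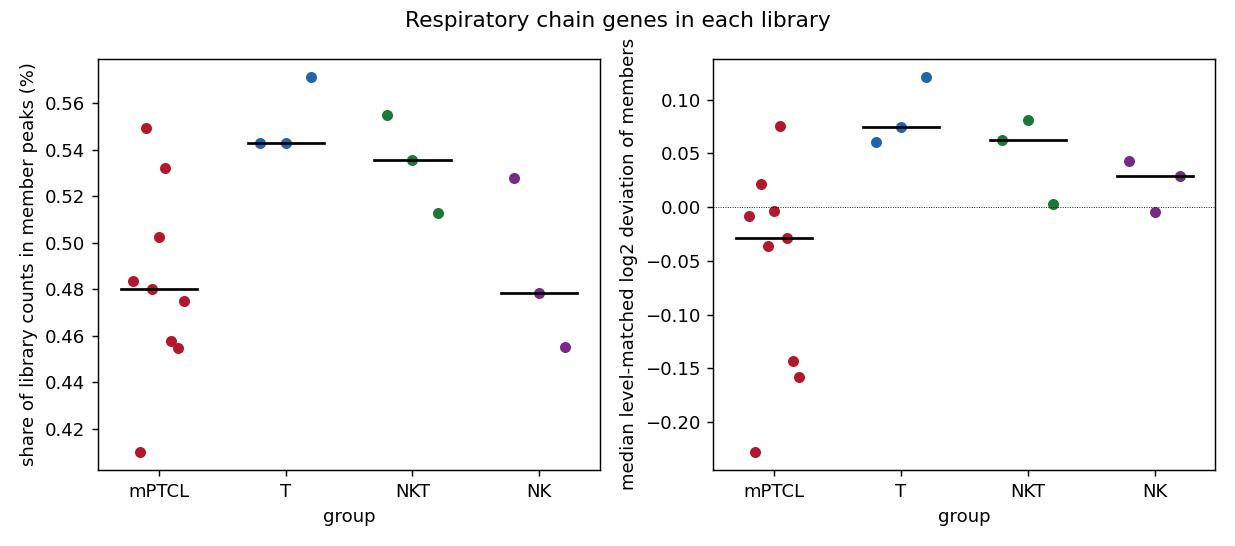
Left, share of each library's peak counts that fell in the peaks of the 90 members (percent). Right, median over members of the log2 deviation from the mean of all libraries after subtracting the median of genes of like level. Points are libraries and bars are group medians (9 mPTCL, 3 T, 3 NKT, 3 NK); the lymphoma shares run from 0.410% to 0.550%, and the lowest deviation is -0.23 in lymphoma 2.

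To compare the members with genes of like level, all genes were divided into 20 equal classes of mean log2 CPM, and the class median was subtracted from each member's value. In single libraries the median of this level-matched log2 deviation was -0.23 to 0.08 in lymphomas, 0.06 to 0.12 for T cells, 0.00 to 0.08 for NKT cells and -0.0044 to 0.04 for NK cells. Lymphomas 2, 8 and 9 were lowest, at -0.23, -0.14 and -0.16, and the other 6 lay between -0.04 and 0.08. Lymphomas 2, 8 and 9 were also the shallowest of the 9, at 1422130, 670358 and 1040523 counts, against 2044776 or more in the others. The part of depth in these values was not tested.

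Against NKT cells, more respiratory chain genes were less accessible in lymphomas than more accessible. At the gene level, where counts were summed over all peaks of a gene, 22 of the 90 were lower and 7 higher at an adjusted p below 0.05 (edgeR, all genes), and 61 did not pass. Among all genes 20.2% were lower and 25.5% higher. In bulk libraries, fewer cells of a type and less accessibility per cell cannot be told apart. The median log2 fold change of the members was -0.27, against 0.06 for all genes. Fold changes in this comparison fell with mean level, from a class median of 2.50 in the weakest class of genes to -0.27 in the strongest, and 60 of the 90 members stood in the upper 10 classes. Within those upper classes 19 of 60 members (31.7%) were lower and 3 higher, against 31.9% and 12.8% of all genes there. After level matching the members' median was -0.10 (SD over genes 0.61), with 53 below and 37 above 0. That median was -0.0425 with scaling within each chromosome, -0.0189 with promoter peaks only and 0.0024 with the smaller set of peaks.

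Against T cells, 16 members were lower and 4 higher, against 14.7% and 16.2% of all genes, and the median log2 fold change was -0.14 against 0.12. In the upper 10 classes 12 of 60 members were lower and 3 higher, against 22.1% and 14% of all genes there, and the level-matched median was -0.14 with 55 members below 0 (-0.0760 with scaling within each chromosome, -0.0516 with the smaller set of peaks). Against NK cells, 9 members were lower and 6 higher, against 10.3% and 11.2% of all genes. The median log2 fold change was 0.11, against 0.13 for all genes, and the level-matched median was -0.08 with 48 below 0, and -0.0048 without NK 3. In the upper classes 8 of 60 (13.3%) were lower and 6 higher, against 16% and 13.2%. The share of members called lower was near that of genes of like level in each comparison. With cyclic loess scaling, which removes a trend of fold change with level, limma called 7 members lower and 3 higher than NKT (11.9% and 13.6% of all genes), 12 and 5 than T (11.8% and 11.9%), and 15 and 8 than NK (12.7% and 16.5%). In 18 members all 9 lymphomas lay below all 3 NKT libraries and in 2 above (15.8% and 17% of all genes). The same held against T for 12 and 1 (11.6% and 11.2%) and against NK for 4 and 2 (6.04% and 7.4%). These 3 comparisons share the 9 lymphomas, so their values are given side by side and are not independent.

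**Figure D2:**
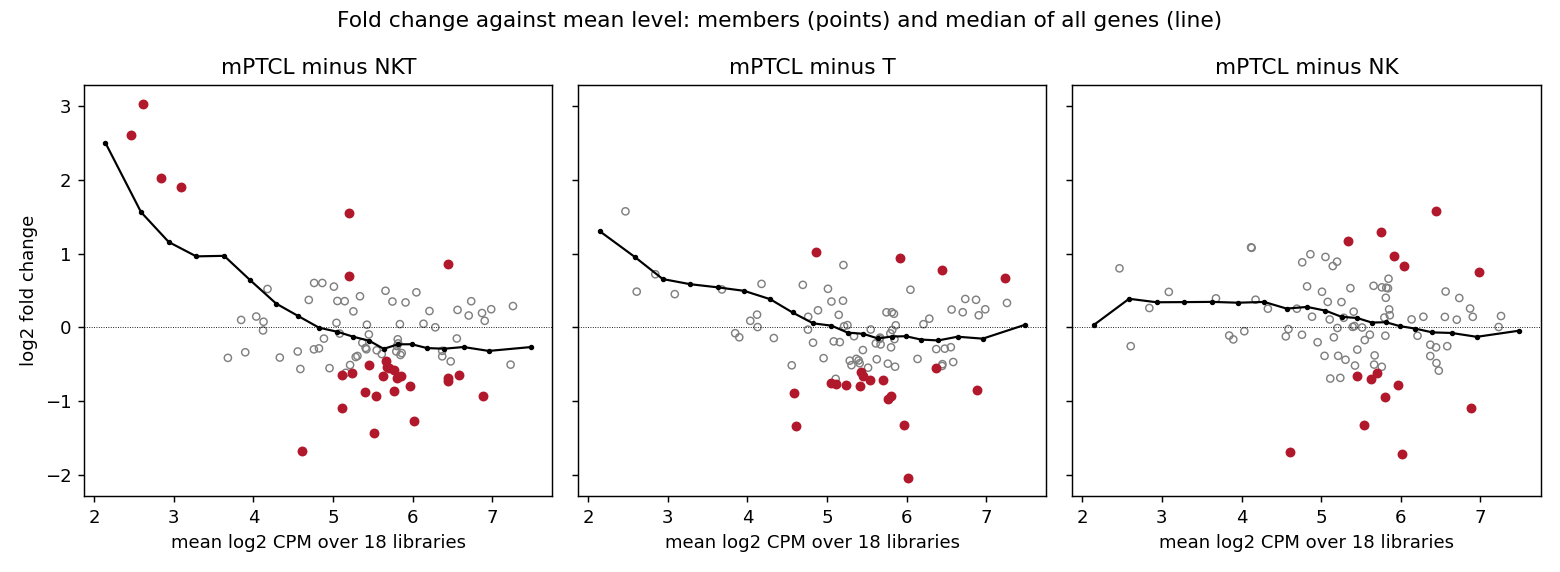
Gene-level log2 fold change of each member (vertical) against its mean log2 CPM over the 18 libraries (horizontal) for lymphomas minus NKT, T and NK. Filled points passed an adjusted p of 0.05, open points did not, and the line joins the medians of all genes in 20 level classes; against NKT that line starts at 2.50 and ends at -0.27.

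At the level of single peaks, 42 of the 115 member promoter peaks were lower and 8 higher than in NKT cells (30.3% and 12.3% of all promoter peaks). Against T cells 29 were lower and 2 higher (18% and 4.85%), and against NK cells 6 were lower and 3 higher (6.06% and 6.99%). Peaks with positive changes included a promoter peak of Cox6c at 3.51 ± 1.01 against NKT and 3.09 ± 1.10 against T. Also positive were 1 of Atp5g2 given also to Mir688 (2.24 ± 0.57 against NKT) and 1 of Ndufaf8 given also to Tepsin (1.81 ± 0.48 against T). Each was weaker than another promoter peak of its gene, which did not pass in the same comparison. Those stronger peaks were at -0.03 (Cox6c) and 0.43 (Atp5g2) against NKT, and at 0.45 (Cox6c) and -0.20 (Ndufaf8) against T. At the weak Cox6c peak the NKT libraries held 0, 1.06 and 0.411 CPM and the T libraries 0, 0 and 1.87. The most negative promoter peaks were those of Uqcrb (-1.98 ± 0.28), Atp5md (-1.73 ± 0.28) and Cox7c (-1.58 ± 0.23) against NKT. These counts moved with the scaling. With RLE scaling, another estimate of library size, 14 were lower and 18 higher than in NKT cells. Against T cells 15 were then lower and 5 higher. Shares of all promoter peaks with RLE are not given here, so these counts are not read as a result about the members. The median log2 fold change of all peaks was 0.27 against NKT and 0.26 against T with TMM, while that of all promoter peaks was -0.32 and -0.15, and that of member promoter peaks -0.41 and -0.30.

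**Figure D3:**
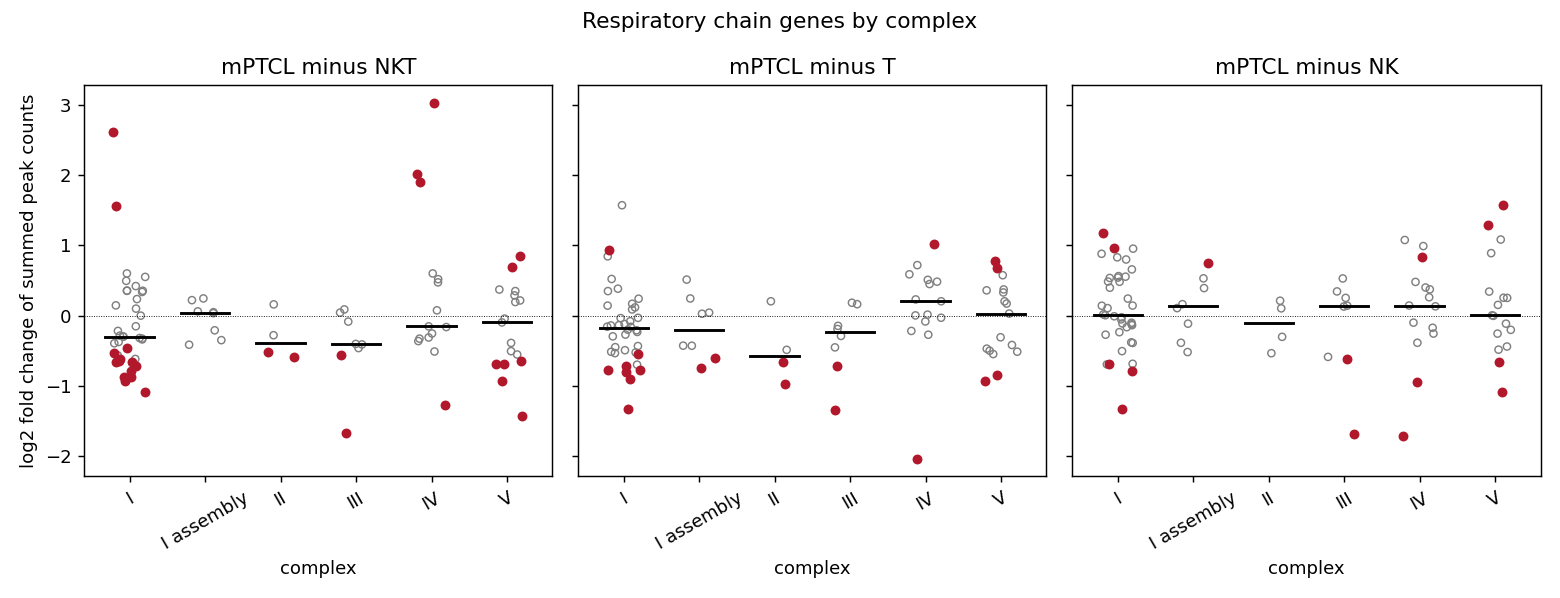
Gene-level log2 fold change of the 90 members, by complex, for lymphomas minus NKT, T and NK. Filled points passed an adjusted p of 0.05 (edgeR), open points did not, and bars are medians; the complex I median against NKT is -0.31 over 38 genes.

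In complex I, the entry point for NADH and the largest group, 12 of 38 genes were lower against NKT, 7 against T and 3 against NK, with 2, 1 and 2 higher. Among all genes 20.2%, 14.7% and 10.3% were lower and 25.5%, 16.2% and 11.2% higher, and among all genes of the upper level classes 31.9%, 22.1% and 16% were lower. Its median log2 fold change was -0.31, -0.18 and 0.01. Ndufa5, a subunit of the arm that reaches into the matrix, was one of 3 members in which all 9 lymphomas lay below all 9 normal libraries. It held 35.0 to 53.0 (median 40.3) CPM in lymphomas, given as the range with the median. The T libraries held 97.8, 112 and 105, the NKT libraries 85.2, 68.5 and 64.8 and the NK libraries 63.7, 71.2 and 80.8 CPM. No lymphoma reached any normal library, and T cells stood highest. The log2 fold change, here and below with its standard error (SE), was -0.80 ± 0.17 (adjusted p = 0.000742) against NKT, -1.33 ± 0.17 (adjusted p = 5.33e-06) against T and -0.79 ± 0.20 (adjusted p = 0.00544) against NK. Its single peak, on chromosome 6, is a promoter peak also given to Asb15.

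Ndufa4, also on chromosome 6, carries a complex I name but is known as a subunit of complex IV. It held 20.5 to 47.6 (median 30.3) CPM in lymphomas, 53.4, 47.8 and 51.9 in T, 76.6, 50.2 and 52.8 in NKT and 47.2, 114 and 74.4 in NK. Lymphoma values did not overlap those of T and NKT, while NK 1 lay just below the highest lymphoma. The log2 fold change was -0.93 ± 0.24 (adjusted p = 0.00319) against NKT, -0.72 ± 0.25 (adjusted p = 0.0321) against T and -1.33 ± 0.27 (adjusted p = 0.000810) against NK. Against T the call was lost without any 1 of the 3 T libraries (adjusted p up to 0.105) or without lymphoma 4 (0.0509). Its peak is shared with Phf14. Its tissue-restricted relative Ndufa4l2 was not called in any of the 3 comparisons (log2 fold changes 0.50, -0.16 and 0.56 against NKT, T and NK), but was higher than NKT and NK with scaling within each chromosome (0.86 and 0.98).

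Other subunits of complex I passed in only 1 or 2 of the 3 lymphoma comparisons. Ndufv1, which binds NADH, held 18.9 to 66.8 (median 44.7) CPM in lymphomas and 96.5, 81.2 and 74.5 in NKT, without overlap, a log2 fold change of -0.87 ± 0.25 (adjusted p = 0.00765) that lost its call without NKT 1 (0.0505). Ndufs7 and Ndufs8, which hold iron-sulphur clusters, were at -0.88 and -0.73 against NKT. The Ndufs8 call was lost with cyclic loess, promoter peaks only or the smaller set of peaks. Ndufs6 (chromosome 13) held 16.3 to 30.2 (median 25.1) CPM in lymphomas and 43.6, 55.4 and 55.0 in NKT, and was at -1.10 ± 0.21 (adjusted p = 0.000230) against NKT and -0.78 ± 0.22 (adjusted p = 0.00999) against T. Against NK it was at -0.70 and did not pass, and the call against T was lost without T 3 (0.118). Ndufab1, the acyl carrier protein, was at -0.54 against NKT, a call lost without any 1 NKT library (adjusted p up to 0.0845). Ndufs1, the largest subunit, passed only against T (-0.55; -0.40 against NKT and -0.24 against NK), and Ndufv2 passed in none of the 3. The Ndufs1 call was lost without any 1 T library (adjusted p up to 0.135). Higher values were rare in complex I. Ndufb9, on chromosome 15, was at 0.94 ± 0.26 (adjusted p = 0.00729) against T and 0.96 ± 0.29 (adjusted p = 0.0190) against NK, lost without T 1 (0.0612) and without NK 2 (0.0800) or NK 3 (0.0875). Ndufa7 was at 1.17 ± 0.42 (adjusted p = 0.0478) against NK and lost that call without any 1 of 11 libraries, up to an adjusted p of 0.336 without NK 3. Ndufa11b, the pseudogene measured only through the Igf2bp2 peak, was at 2.62 ± 0.86 (adjusted p = 0.0160) against NKT from weak counts, and lost the call without NKT 1 (0.0603) or NKT 3 (0.0795). Whether a gene called in 1 comparison differs from its value in another was not tested.

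Ndufs4, a subunit whose loss causes a mitochondrial disease, varied more among lymphomas, relative to its level, than any other member. Over its 3 peaks it held 6.77 to 83.9 (median 57.1) CPM in lymphomas, 25.3, 34.0 and 16.9 in T, 15.2, 15.4 and 15.2 in NKT and 24.6, 49.6 and 60.2 in NK. The SD over lymphomas was 1.25 log2 units, 3.18 times the median of genes of its level class (0.39). It was called higher than NKT (1.56 ± 0.50, adjusted p = 0.0134). Single peaks differed in direction. At the promoter peak lymphomas held 4.67 to 13 (median 7.02) CPM, T 23.4, 28.6 and 14.0, NKT 13.6, 19.5 and 15.5 and NK 16.6, 19 and 0, with a log2 fold change of -1.11 ± 0.43 (adjusted p = 0.0379) against NKT and -1.52 ± 0.45 (adjusted p = 0.0155) against T. All 9 lymphomas lay below all 6 T and NKT libraries there. At the stronger of its 2 intronic peaks lymphomas 1 to 9 held 59.3, 61.2, 39.0, 30.4, 13.2, 1.09, 41.5, 50.2 and 0 CPM, T 6.39, 8.65 and 7.01, NKT 4.80, 0.303 and 4.11 and NK 4.15, 25.3 and 50.8. There 7 lymphomas lay above all T and NKT libraries and lymphomas 6 and 9 at or near 0, while NK 2 and NK 3 were also high, and the log2 fold change was 3.58 ± 0.86 (adjusted p = 0.00179) against NKT.

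The 8 assembly factors of complex I showed no call against NKT. Against T, Ndufaf5 (-0.75) and Ndufaf4 (-0.61) were lower, and against NK Ndufaf8 was higher (0.76). Ndufaf1, an early assembly factor, passed in none of the 3.

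Complex II, succinate dehydrogenase, also works in the tricarboxylic acid cycle. Sdha, its flavoprotein, lies on chromosome 13 and held 29.0 to 68.0 (median 41.1) CPM in lymphomas, 85.1, 90.5 and 65.9 in T, 68.0, 55.6 and 60.7 in NKT and 55.4, 66.9 and 55.4 in NK. It was at -0.98 ± 0.21 (adjusted p = 0.00131) against T and -0.59 ± 0.21 (adjusted p = 0.0256) against NKT, and at -0.54 against NK without passing. The highest lymphoma overlapped all 3 groups. Against NKT the call was lost without any 1 of the 3 NKT libraries (adjusted p up to 0.107). In all it was lost in 12 of 29 alternatives, RLE scaling, library totals and DESeq2 among them. Sdhd, a membrane anchor, was lower than T (-0.66) and NKT (-0.52; adjusted p = 0.0472), while Sdhb and Sdhc passed in none of the 3 comparisons. The Sdhd call against NKT was lost without any 1 of NKT 2, NKT 3, T 1, T 3 and lymphomas 1, 5, 6, 8 and 9 (adjusted p up to 0.245), and that against T without T 1 (0.131) or T 3 (0.110).

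In complex III, 2 of 8 genes were lower in each lymphoma comparison (20.2%, 14.7% and 10.3% of all genes against NKT, T and NK) and none higher, and both lie on chromosome 13. Uqcrb, a subunit near the quinone site, was another member in which all lymphomas lay below all normal libraries. It held 7.42 to 15.7 (median 13.8) CPM in lymphomas, 39.8, 34.0 and 21.5 in T, 50.9, 32.6 and 36.1 in NKT and 24.6, 34.5 and 58.6 in NK. The closest values were the highest lymphoma and T 3. The log2 fold change was -1.68 ± 0.27 (adjusted p = 4.41e-05) against NKT, -1.35 ± 0.29 (adjusted p = 0.00121) against T and -1.69 ± 0.32 (adjusted p = 0.000445) against NK. Its single peak is also given to Gm10767.

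Uqcrfs1, the Rieske iron-sulphur protein, moved less, at -0.56, -0.72 and -0.62 against NKT, T and NK. Its lymphoma range, 29.7 to 54.2 (median 39.4) CPM, overlapped the NK libraries (76.0, 51.8 and 60.2). The call against NK was lost without lymphoma 6 (adjusted p = 0.0514) or without any 1 of NKT 2, NKT 3, NK 1 and NK 3 (adjusted p up to 0.192), that against NKT without NKT 2 (0.104) or NKT 3 (0.0615), and that against T without T 2 (0.0555). The core proteins Uqcrc1 and Uqcrc2 and the hinge protein Uqcrh passed in none of the 3 comparisons, although Uqcrh was lower than NKT and NK with scaling within each chromosome (-0.59 and -0.72).

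Complex IV held the member with the most negative fold change against T and against NK. Cox7c, a small subunit of cytochrome c oxidase on chromosome 13, held 18.8 to 50.3 (median 29.2) CPM in lymphomas. The T libraries held 138, 131 and 109, the NKT libraries 79.3, 77.0 and 65.8 and the NK libraries 80.1, 77.7 and 141 CPM. All 9 lymphomas lay below all 9 normal libraries, as for Ndufa5 and Uqcrb; these 3 of 90 members compare with 2.85% of all genes. No member had all lymphomas above all normal libraries (2.3% of all genes). The log2 fold change was -2.04 ± 0.22 (adjusted p = 5.39e-07) against T, -1.28 ± 0.22 (adjusted p = 8.73e-05) against NKT and -1.72 ± 0.24 (adjusted p = 3.41e-05) against NK. Its single promoter peak carries no other symbol and gave -2.26 ± 0.23 (adjusted p = 2.35e-08) against T in the fit of single peaks.

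**Figure D4:**
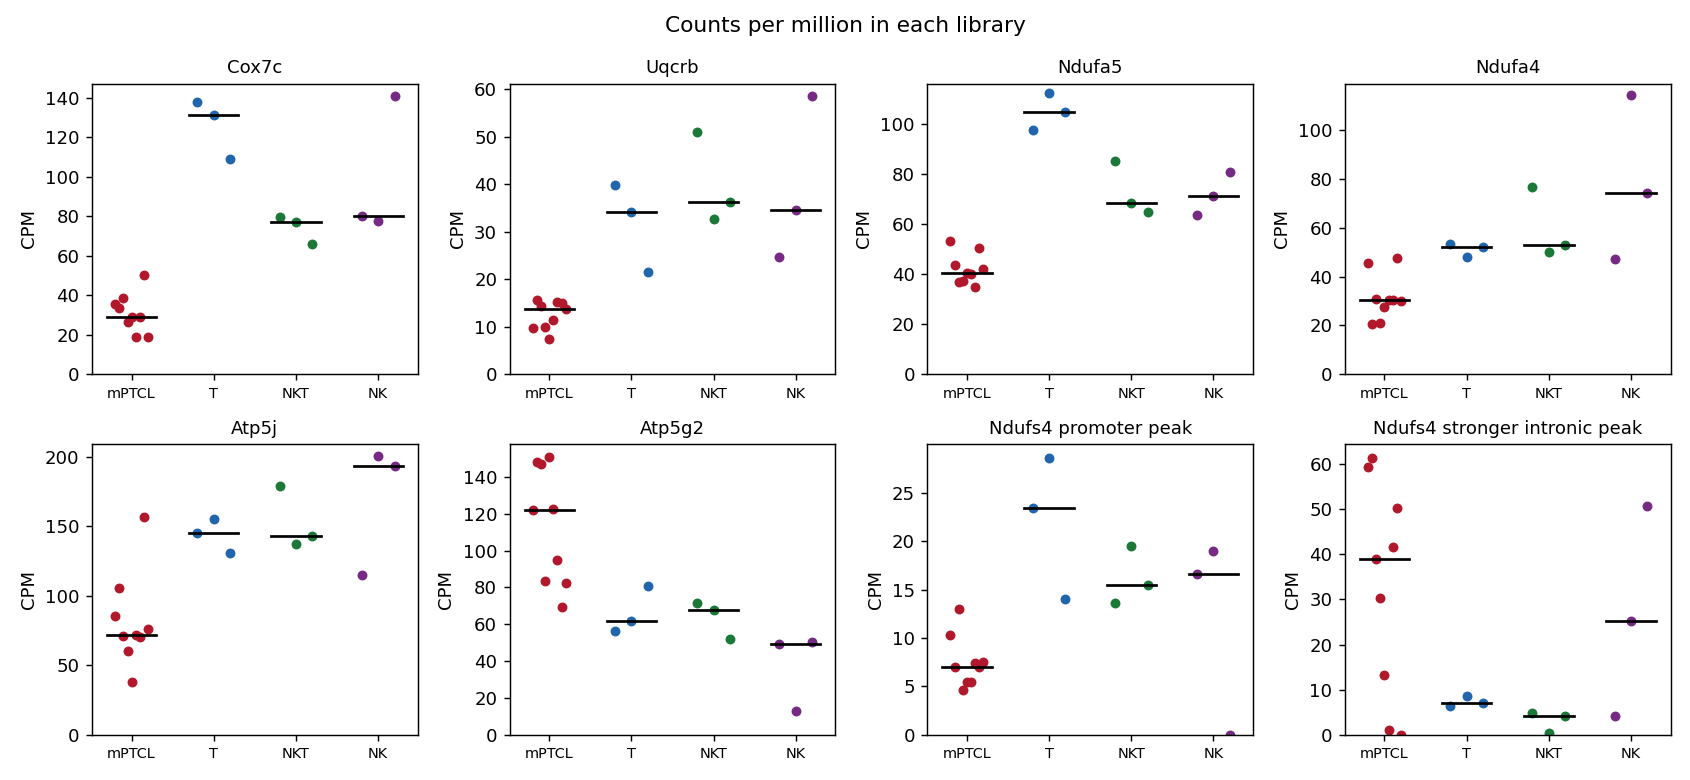
CPM in each library at 6 members (summed over their peaks) and at 2 single peaks of Ndufs4; points are libraries, bars group medians, and each vertical axis starts at 0. Cox7c, Uqcrb and Ndufa5 show every lymphoma below every normal library, with Cox7c at 18.8 to 50.3 CPM in lymphomas.

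Most other subunits of complex IV did not pass. The nuclear genes Cox4i1, Cox5a, Cox5b, Cox6b1, Cox7a2l and Cox8a passed in none of the 3 lymphoma comparisons. Cox7a2 was lower than NK (-0.94 ± 0.27, adjusted p = 0.0130), a call lost without NK 3 (adjusted p = 0.154). Cox6a1 was higher than NK (0.83 ± 0.27, adjusted p = 0.0259), lost without NK 3 (0.201). The Cox6a1 call was also lost with scaling within each chromosome or with shared peaks left out. This gene lies on chromosome 5, and its promoter peak is shared with Gm42903. Cox6c, on chromosome 15, held 24.3 to 62.8 (median 32.7) CPM in lymphomas and 18.1, 14.5 and 19.9 in T without overlap, at 1.03 ± 0.31 (adjusted p = 0.0152), a call lost without T 1 (adjusted p = 0.0526) or T 2 (0.0857).

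Isoforms of complex IV known from muscle or testis were, with Ndufa11b, the members with the most positive fold changes against NKT, all at low levels. Cox7b2 was measured only through 1 intronic peak, and no promoter peak of the gene overlapped its promoter window. It held 2.58 to 10.9 (median 7.19) CPM in lymphomas, 1.81, 4.35 and 7.90 in T, 1.32, 0.698 and 0.727 in NKT and 10.3, 8.63 and 6.33 in NK. The lymphoma values overlapped T and NK and lay above NKT, which had 15 counts over 3 libraries, and the log2 fold change was 3.04 ± 0.67 (adjusted p = 0.000922) against NKT, 0.48 against T and -0.26 against NK. Cox6b2 was at 2.02 ± 0.77 (adjusted p = 0.0335) and Cox8b at 1.91 ± 0.59 (adjusted p = 0.0107) against NKT, and neither passed against T or NK. All genes of the level class of Cox7b2 had a median log2 fold change of 1.56 against NKT, and those of the class of Cox6b2 and Cox8b one of 1.16, so the level-matched values of these 3 were 1.47, 0.87 and 0.75. All 3 calls were lost with cyclic loess scaling. The Cox6b2 call was also lost without lymphoma 2 or 5 or NKT 1 or 2 (adjusted p up to 0.117) and the Cox8b call without NKT 1 (0.0530). Cox4i2 and Cox7a1 passed in none of the 3, and Cox6a2 and Cox8c were not analysed here. Of 7 muscle markers, the 4 with peaks summed to 59.4 to 102 CPM in lymphomas, 26.4 to 48.9 in NKT, 50.7 to 64.4 in T and 45.2 to 56.1 in NK, and Myh6, Myh7 and Acta1 were not analysed here; their part was not tested.

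In complex V, the ATP synthase, 5 of 17 genes were lower and 2 higher against NKT (20.2% and 25.5% of all genes), 2 and 2 against T (14.7% and 16.2%), and 2 and 2 against NK (10.3% and 11.2%). Atp5j, the coupling factor 6 subunit on chromosome 16, held 37.9 to 156 (median 71.9) CPM in lymphomas, 145, 155 and 131 in T, 179, 137 and 143 in NKT and 115, 201 and 193 in NK. Lymphoma 8, the highest, reached into all 3 normal groups, and the other 8 lay below all normal libraries. The log2 fold change was -0.93 ± 0.24 (adjusted p = 0.00322) against NKT, -0.85 ± 0.25 (adjusted p = 0.0114) against T and -1.09 ± 0.26 (adjusted p = 0.00362) against NK, and the call against T was lost without T 2 (adjusted p = 0.0622). Of its 3 peaks 1 passed the test in the lymphoma comparisons, and it is shared with Gabpa, the gene of the GABP alpha subunit. That peak spans chr16:84834647-84835147 and so lies outside the printed bases. There lymphomas held 29.0 to 105 (median 53.6) CPM, T 129, 137 and 107, NKT 185, 143 and 150.2 and NK 91.2, 179 and 169.7, and the log2 fold change was -1.53 ± 0.23 (adjusted p = 7.31e-06) against NKT. The 2 peaks given to Atp5j alone did not pass in any lymphoma comparison, although 1 of them had a log2 fold change against T (-1.07 ± 0.40, adjusted p = 0.0531) near that of the shared peak (-1.17 ± 0.24). With shared peaks left out, Atp5j stood at 0.21 against NK.

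The catalytic beta subunit Atp5b was at -0.69 ± 0.20 (adjusted p = 0.00686) and the delta subunit Atp5d at -0.64 ± 0.20 (adjusted p = 0.0104) against NKT. These calls were lost without NKT 1 (0.0543) and NKT 2 (0.0640) in turn. Both genes lie on chromosome 10, and both calls were also lost with scaling within each chromosome, cyclic loess or the smaller set of peaks. That of Atp5d was lost with shared peaks left out as well. The gamma subunit Atp5c1, which turns inside the enzyme's head, was lower than T (-0.93 ± 0.22, adjusted p = 0.00221) and NKT (-0.69). Its call against NKT was lost with scaling within each chromosome, cyclic loess, promoter peaks only or the smaller set of peaks. Atp5md, a small accessory subunit, held 24.3 to 43.8 (median 30.7) CPM in lymphomas and 106, 79.0 and 80.1 in NKT without overlap, at -1.43 ± 0.28 (adjusted p = 0.000332), and passed against neither T nor NK. Its promoter peak is shared with Pdcd11.

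Atp5g2, on chromosome 15, was called higher in all 3 lymphoma comparisons; it is 1 of 3 genes for the c subunit of the membrane rotor. It held 69.4 to 151 (median 122) CPM in lymphomas, 56.1, 61.6 and 80.5 in T, 71.4, 67.8 and 51.8 in NKT and 49.3, 12.9 and 50.7 in NK. All lymphomas lay above all NK libraries, while the lowest lymphoma fell within the T and NKT ranges. The log2 fold change was 1.57 ± 0.32 (adjusted p = 0.000932) against NK, 0.85 ± 0.26 (adjusted p = 0.00935) against NKT and 0.78 ± 0.26 (adjusted p = 0.0264) against T. Those against NKT and T were lost without NKT 3 (adjusted p = 0.0737), and without lymphoma 5 (0.0504), T 1 (0.127) or T 2 (0.108). Both were also lost with shared peaks left out. In the edgeR fit of single peaks, the strongest Atp5g2 peak, at its promoter, passed only against NK (1.69 ± 0.34, adjusted p = 0.00140). That peak was at 0.43 ± 0.27 (adjusted p = 0.187) against NKT and 0.40 ± 0.27 (adjusted p = 0.298) against T. The other c-subunit genes, Atp5g1 and Atp5g3, and the stalk gene Atp5h passed in none of the 3 comparisons. Atp5f1 was higher than NK (1.29 ± 0.34, adjusted p = 0.00833), a call lost without NK 3 (0.0987). Atp5o was higher than T at the gene level (0.67 ± 0.23, adjusted p = 0.0300), a call lost without lymphoma 7 or any 1 T library (adjusted p up to 0.108). Its only promoter peak is also its only unshared peak. Against T that peak gave -0.43 with promoter peaks only and -0.69 with shared peaks left out. In the edgeR fit of single peaks it was lower than T (-0.80 ± 0.29, adjusted p = 0.0451) and NKT (-1.14 ± 0.27, adjusted p = 0.00136). Against NK it was at -0.26 and did not pass.

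The lymphomas carried unequal shares of counts per chromosome, so members were read against all genes of their own chromosome. Members lie on 18 of the 19 autosomes, and none was on chromosome 14. The chromosome 13 share lay below every normal library in 9 of 9 lymphomas, by a median of -0.39 log2 units relative to the mean of the normal libraries, and its 7 members included 5 called lower against T (40.5% of all chromosome 13 genes). Their median log2 fold change against T was -0.78, against -0.59 for all genes there. Against NKT 5 of the 7 were lower and 1 higher (46.2% and 10.6% of all genes there), with a member median of -0.587 against -0.590. Against NK 3 were lower (24.9%), with -0.62 against -0.42. Chromosome 15 was above every normal library in 9 of 9, and 3 of its 4 members (Cox6c, Ndufb9 and Atp5g2) were higher than T, against 52.5% of all genes there, with a member median of 0.86 against 0.97. Against NKT 1 of these 4 was higher (62.5% of all genes there), all 4 lay below the chromosome's median, and the member median was 0.48 against 1.02. Against NK 2 were higher (37.6%), with 0.98 against 0.83. On chromosome 6 all 4 members (Ndufa4, Ndufa5, Ndufa9 and Ndufb2) lay below the chromosome's median in all 3 comparisons, with medians of -0.73 against -0.18 for NKT, -0.57 against -0.09 for T and -0.74 against -0.06 for NK. Chromosomes 2, 10 and 16 were also below every normal library in 9 of 9 lymphomas, at medians of -0.27, -0.40 and -0.47. Chromosomes 5 and 11 were above in 9 of 9, at 0.37 and 0.47. Against NKT 3 of the 6 chromosome 10 members were lower (35% of all genes there). With scaling within each chromosome 0 were lower and 1 higher. Against T 1 was lower (28.9%) and against NK 0 (21.7%). All 5 members on chromosome 11 lay below its median against NKT and T, and 4 against NK. A gain or loss of DNA and a change in accessibility per copy cannot be told apart in these counts.

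**Figure D5:**
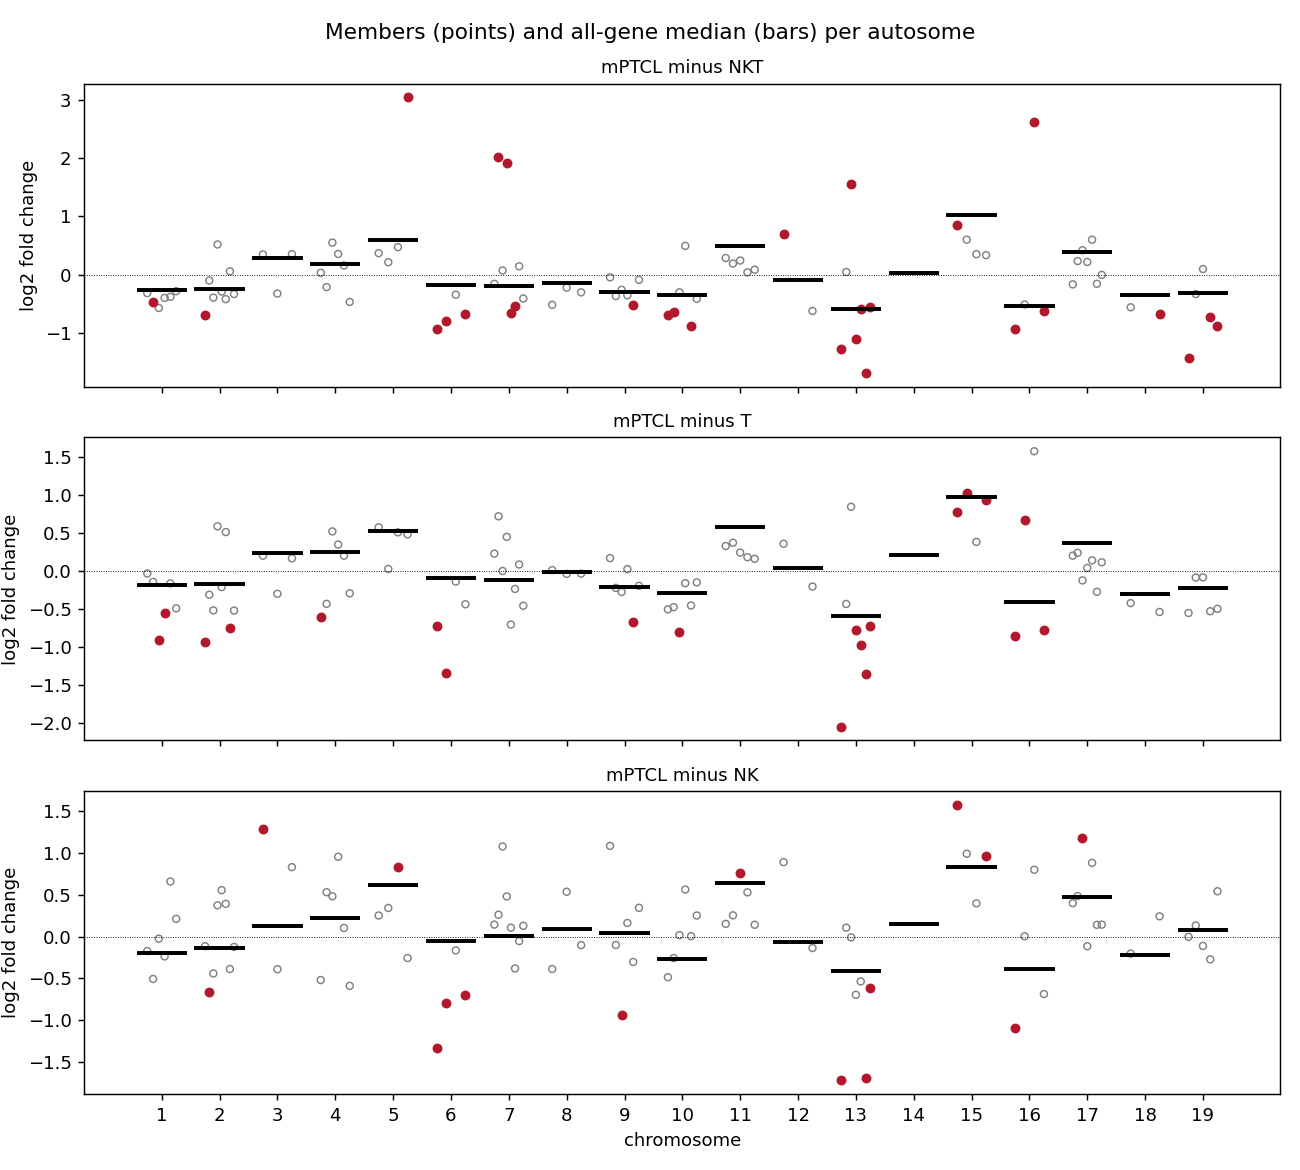
Gene-level log2 fold change of each member (points, filled where adjusted p was below 0.05) and median of all genes (bars) on each of 19 autosomes, for lymphomas minus NKT, T and NK. Points on chromosome 13 lie around a bar at -0.59 against T, those on chromosome 15 around one at 0.97, and all 4 points on chromosome 6 lie below their bar.

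When scaling factors were estimated within each chromosome, 14 members were lower and 8 higher than NKT (18% and 23.9% of all genes), 5 and 2 against T (12.6% and 12.8%) and 8 and 6 against NK (8.97% and 7.85%). Of the lower calls of the first fit, 9 of 22 were kept against NKT, 4 of 16 against T and 6 of 9 against NK. Cox7c stayed lower in all 3, at -0.71, -1.45 and -1.21, and so did Ndufa5, at -0.64, -1.16 and -0.62. Uqcrb kept its call against NKT and NK (-1.09 and -1.15) and lost it against T (-0.73, adjusted p = 0.0529). Atp5j kept only that against NK (-0.66), as did Atp5g2 (0.87), whose other values were -0.01 and -0.07. Uqcrfs1 and Sdha lost all their calls, and the chromosome 15 genes Cox6c and Ndufb9 were at 0.15 and 0.11 against T.

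Fewer members were called between the normal groups. NK against NKT gave 1 higher and 3 lower (8.52% and 6.31% of all genes), with a median log2 fold change of -0.21 against -0.04 for all genes. Atp5md (-1.43) and Ndufv1 (-1.41) were among those lower in NK, and Cox7b2 was higher (3.29). The calls of Atp5md and Ndufv1 were lost without NK 3, a library with 596601 counts (adjusted p of 0.121 and 0.118). That of Atp5md was also lost without NKT 1 (0.0821) or NKT 2 (0.0525). NK against T gave no call (3.3% and 2.2% of all genes), 0 calls with limma after cyclic loess scaling and 3 with scaling within each chromosome. There 13 of 90 members had an unadjusted p below 0.05 (edgeR). The share of all genes at that unadjusted p is not given here, so the 13 are not read as an excess. NKT against T gave 1 higher, Atp5o (1.18), and 1 lower, Cox7b2 (-2.55; 2.32% and 2.23% of all genes). The Atp5o call was lost without T 1, T 2 or NKT 2 (adjusted p up to 0.0625), and that of Cox7b2 without any 1 of the T and NKT libraries or of lymphomas 1, 4, 5, 6 and 7 (adjusted p up to 0.314).

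With scaling within each chromosome, NK against NKT gave 3 higher and 5 lower (10.1% and 8.29% of all genes), NK against T 0 and 3 (4.32% and 3.27%) and NKT against T 1 and 2 (3.15% and 3.12%). After cyclic loess scaling limma gave 1 and 3 (6.8% and 7.57%), 0 and 0 (4.34% and 4.93%) and 1 and 0 (1.39% and 1.29%) for these comparisons in the same order. Among the 60 members of the upper level classes, edgeR called 0 higher and 3 lower for NK against NKT (4.41% and 8.94% of all genes there), none for NK against T (3.01% and 2.67%) and 1 higher for NKT against T (3.19% higher, 1.44% lower). Of the 115 promoter peaks, 1 was higher and 19 lower in NK than in NKT (3.43% and 15.5% of all promoter peaks), 0 and 8 than in T (0.931% and 4.2%), and none differed between NKT and T (1.65% and 0.866%).

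Genes that serve the chain without being members were listed by name. Of 42 electron carriers and assembly factors, 12 were lower and 3 higher than NKT, 9 and 4 than T, and 4 and 7 than NK, with medians of -0.25, -0.15 and 0.16. Foxred1, an assembly factor of complex I, was at -1.36 ± 0.18 (SE) against NKT, and Cyc1, the heme protein of complex III on chromosome 15, was higher than T (1.09 ± 0.26). Against NK the copper chaperones Cox19 (1.59 ± 0.28) and Sco1 (1.34 ± 0.31) were higher. Of 20 measured regulators of mitochondrial biogenesis, 8 were lower and 1 higher than NKT, 7 and 1 than T, and 4 and 0 than NK, with medians of -0.45, -0.40 and -0.36. Gabpb1, a beta subunit of GABP, was at -1.66 ± 0.25 against NKT, while Gabpb2, the other beta subunit gene, was higher than NKT (1.65 ± 0.48) and T (1.64 ± 0.50). Gabpa, which shares the Atp5j promoter peak, was at -1.48 ± 0.25 against NK. Mterf3, a repressor of mitochondrial transcription, was lower than T (-1.63 ± 0.22). Of 19 genes of the tricarboxylic acid cycle and pyruvate dehydrogenase, 7 were lower and 1 higher than NKT, with Idh2 at -1.13 ± 0.26, 7 and 1 than T, and 4 and 3 than NK, with Fh1, fumarase, at -1.38 ± 0.20 against NK. Of 78 genes of the mitochondrial ribosome, 19 were lower and 6 higher than NKT, 17 and 7 than T, and 8 and 14 than NK; Mrpl13, on the large subunit, was at 1.52 ± 0.23 against NKT. Of 24 genes of glycolysis and lactate transport, 6 were lower and 3 higher than NKT, with Hk2, a hexokinase, at 1.55 ± 0.25, 4 and 1 than T, where the lactate carrier Slc16a3 was at 1.33 ± 0.29 and Pfkl, a phosphofructokinase, at -0.76 ± 0.24, and 2 and 3 than NK, where the lactate carrier Slc16a1 was at 1.56 ± 0.26. These lists are read against 20.2% lower and 25.5% higher among all genes for NKT, 14.7% and 16.2% for T, and 10.3% and 11.2% for NK.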

How the data were processed

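ATAC-seq had been run on 18 libraries, and the authors deposited whole-number read counts per peak for 61224 peaks of 500 bp, beside a smaller table of 27727 peaks used as an alternative. The deposited tables also hold log2 CPM values, which equalled recomputed ones within 0.0005. MACS2 2.1.2, edgeR 3.24.3, bedtools and the mm10 build are named in the submitters' processing notes. The aligner, duplicate filter, Tn5 shift and rule for merging peaks were not given in the sources used here, nor whether positions count from 0 or 1. Groups were taken from the labels, and no column was left unmapped. The members, gene lists and motifs were chosen with earlier results of these data known.

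Counts were summed per gene symbol over all peaks that carry it, so a peak with several symbols counts for each, and 15.7% of peaks, without a symbol, were left out of gene sums. All 20325 genes and, separately, 61220 peaks were fitted in R 4.3.3 with edgeR 4.0.16 (TMM scaling over all 18 libraries, quasi-likelihood test, Benjamini-Hochberg adjustment over the whole table, 14 residual degrees of freedom). All 20325 genes, the 90 members among them, passed edgeR's filter on low counts. Levels are TMM-scaled CPM. The scripts were tested on simulated data. Alternatives used other scalings (RLE, library totals, TMM within each chromosome, cyclic loess with limma 3.58.1), filters, DESeq2 1.42.0, single libraries left out, and a block on replicate number. No pair of libraries within any group agreed within sampling noise: the closest, T 1 and T 2, differed with a chi-square of 2.24 per degree of freedom. Genes named were a list of chosen subunits and isoforms with all c-subunit genes. To these came the 4 called members with the most positive and most negative fold change per comparison, and the 3 such promoter peaks. Members with an outlying lymphoma and the 2 most changed called genes per other list, of which some are printed, were also named. Ndufs4, Ndufa5 and other called members beyond this were chosen after their values were seen. The same-number correlations of the libraries' deviations ran from -0.065 to 0.101, so replicate numbers were not taken to pair the samples. Low depth, above all in NK, limits what could be detected. The values of 1 member are not reported here.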

Additional observations from a re-analysis of the deposited data

Results flagged for a closer look

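In 5 of the 90 members, 1 of the 9 lymphomas stood far from the others; chance alone gives this in about 1 in 20 groups. Atp5l held 7.75 CPM in lymphoma 9 and 14.9 to 25.9 in the others. In lymphoma 8, the shallowest lymphoma library, Cox4i2 held 8.16 CPM (15.2 to 27.6 in the others), Cox7a2l 24.5 (46.8 to 88.7) and Cox8b 0 (8.02 to 16.7). Uqcrc1 held 19.1 CPM in lymphoma 2 and 29.3 to 41.1 in the others. Low depth in lymphoma 8 goes along with 3 of these values, and its part was not tested.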

How the results depend on the processing

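The calls of Cox7c and Ndufa5 against NKT, T and NK held under each of the 28 or 29 alternatives run for them, and those of Uqcrb under all but scaling within each chromosome against T. Counts over the list moved more. With RLE scaling 11 genes were higher than NKT; promoter peaks numbered 18 higher and 14 lower than NKT, 5 and 15 against T, 4 called for NK against NKT and 1 for NK against T. With library totals these peak counts were 16 and 18 against NKT, 18 lower than T, 5 and 1. With scaling within each chromosome 14 genes were lower than NKT, 2 higher and 5 lower than T, and 8 were called for NK against NKT and 3 for NK against T; the level-matched medians were -0.0425 (NKT) and -0.0760 (T), and Atp5g2 (-0.0068 against NKT, -0.071 against T) and Uqcrfs1 (0.032 against NKT) changed sign. With cyclic loess 3 genes were higher and 7 lower than NKT, 15 lower than NK and 1 called for NKT against T; of promoter peaks 3 were lower than NKT, 5 higher and 3 lower than T, 14 higher than NK, and 4 and 4 called for NK against NKT and T. A mean count of at least 20 left 1 gene for NKT against T, and of promoter peaks 15 lower than NKT, 1 higher than T, and 2, 1 and 1 for NK against NKT, NK against T and NKT against T. With promoter peaks only, 11 genes were lower than NKT (level-matched median -0.0189), 9 lower than T, 10 higher than NK and 0 called for NKT against T, with Atp5o at -0.43 against T. Without peaks of 2 or more symbols, 57 members remained: 10 were lower than NKT, 1 higher and 9 lower than T, 2 higher and 4 lower than NK and 1 called for NKT against T, with Atp5o at -0.69 against T and Atp5j at 0.21 against NK. With the smaller set of peaks, 8 were lower than NKT and 5 than T, 2 were called for NK against NKT, and level-matched medians were 0.0024 (NKT), -0.0516 (T), 0.0745 (NK against NKT) and 0.0592 (NK against T). Leaving out Atp5o and Ndufa11b, chosen after seeing the data, left 1 call for NKT against T. Fits of only the 2 groups compared gave 1 call for NK against T, 9 for NKT against T, and a level-matched median of -0.0088 for NK against NKT. DESeq2 called 12 higher than NKT and 4 for NKT against T. Except where given above, shares of all genes or peaks are not given for these settings. The counts then show only how the members' own calls moved. The cause of these shifts was not tested.

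Leaving out 1 library at a time gave 3 to 7 genes higher and 13 to 25 lower than NKT (level-matched median -0.13 to -0.07), 0 to 4 and 8 to 19 for T (-0.18 to -0.10), and 2 to 10 and 6 to 11 for NK (-0.10 to -0.0048). The fewest lower calls came without NKT 1, T 3 and NK 3. The other comparisons gave 1 to 11 calls for NK against NKT (-0.0743 to 0.0297), 0 to 4 for NK against T (-0.125 to 0.0143) and 0 to 2 for NKT against T (-0.0367 to 0.0358), with the most calls for both NK comparisons without NK 1. Promoter peaks, for which single normal libraries were left out and no lymphomas, ranged over 2 to 13 higher and 21 to 43 lower for NKT, 1 to 3 and 11 to 31 for T, 3 to 10 and 3 to 6 for NK, 5 to 20 for NK against NKT, 0 to 9 for NK against T and 0 to 0 for NKT against T.

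A replicate block was fitted on the normal libraries only. It gave 7 calls for NK against NKT, 1 for NK against T and 2 for NKT against T; the same libraries without the block gave 7, 2 and 5. The numbers were not taken to pair the samples, but these fits cannot exclude that libraries of the same number share a source.

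The NK libraries, at 417107 to 596601 counts, are the shallowest, so smaller differences from NK were not detectable. DNA copy number was not measured, and peaks shared between neighbouring genes cannot be divided.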
